A study of Mus musculus with 16 samples.

Results

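The genes described here are 10 that code for proteases of the extracellular matrix and the proteins that act with them: the matrix metalloproteases Mmp8, Mmp9, Mmp12, Mmp13 and Mmp14, the tissue inhibitors Timp1 and Timp2, urokinase (Plau) and its receptor (Plaur), and thrombospondin-1 (Thbs1). They were taken by name from the 18820 genes measured, not by their values, and each was read by 1 probe set that names no other gene. Their transcripts were followed in RAW264.7, a line of macrophage-like mouse cells derived from a virus-induced tumour, on 16 arrays, 4 for each of 4 treatments. The treatments, each lasting 24 h, were lipopolysaccharide (LPS, a part of the bacterial outer membrane) at 1 µg/ml together with docosahexaenoyl serotonin (DHA5HT) at 1 µM, written LPS+DHA5HT; LPS alone; DHA5HT alone; and solvent control, labelled as ethanol at 0.1% by volume. DHA5HT joins docosahexaenoic acid, an n-3 fatty acid, to serotonin through an amide bond. According to the treatment protocol the cells given LPS alone also received vehicle. No genotype differs between groups, every group is the same single line, and nothing in the labels tells whether replicates were grown as independent cultures, so that p-values here reflect the spread between these samples, which may be technical. Array 1 of LPS+DHA5HT carries both agents in its title and DHA5HT alone in its treatment label; the title was followed.

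Matrix metalloproteases are zinc enzymes made as inactive precursors, which are switched on by removal of a propeptide and held in check by the tissue inhibitors of metalloproteases. Urokinase converts plasminogen to plasmin, a protease that breaks down fibrin and can activate some metalloprotease precursors, and its receptor holds it at the cell surface. Macrophages use these enzymes to move through tissue and to remodel it in inflammation, and several of the genes are known targets of the AP-1 and NF-kB transcription factors that act downstream of the LPS receptor.

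All values are log2 intensities, so a difference of 1 is a change of 2-fold, and each mean is given with its SD over 4 arrays (n = 4). A level of 3.66, the median of 15 epithelial and lymphocyte markers that macrophages should lack, served as the mark of a signal near background, and the median gene lay at 5.24. As a median it is not an upper limit of background. Of 8 epithelial markers 5 lay above it in every group, with array medians of 3.86 to 4.27, and of 7 lymphocyte markers 1 to 3 did. Levels of different genes come from different probes and are not compared with each other. The cells matched their label: all 10 macrophage markers lay above the median gene in every group, with array medians of 11.54 to 11.80. Within this list Adgre1, the gene of the F4/80 antigen, averaged 10.73 with LPS+DHA5HT, 10.87 with LPS, 7.17 with DHA5HT and 6.93 in controls. Of 8 osteoclast markers 2 lay above the median gene: Dcstamp, at 6.70, 6.91, 8.04 and 8.08 in the same groups, and Nfatc1, at 6.71, 6.67, 7.67 and 7.56, and the part of these shifts in the results was not tested. Of 7 neutrophil granule markers, 0 or 1 did so, and of 8 fibroblast markers 1 did, and the medians of these lists over arrays were 3.63 to 4.07 and 3.89 to 4.38. LPS+DHA5HT array 4 stood apart on the second principal component (4.72% of the variance), at 22.4 against −10 to 9.4 for the other arrays, and the calls of Mmp13 and Thbs1 that involve that group are also given without it and without array 1. On the first component (70.6%) LPS+DHA5HT array 1, the array with conflicting labels, lay at 22.7. The other arrays of its group lay at 24.5 to 29.5 and the DHA5HT arrays at −33.6 to −31, so array 1 lay on the side of the arrays with LPS. In these bulk RNA samples, fewer cells that make a transcript and less transcript per cell cannot be told apart.

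Mmp13, the collagenase that cleaves fibrillar collagen, had the widest range over the 16 arrays of the 10 genes. It read 7.38, 8.00, 7.72 and 6.98 in the LPS+DHA5HT arrays, against 8.91, 9.64, 9.14 and 8.45 in the LPS arrays. In DHA5HT arrays it read 5.58, 5.65, 5.54 and 5.67, against 5.49, 5.92, 5.61 and 5.68 in controls. The levels therefore lay in 3 steps, highest with LPS, intermediate with LPS+DHA5HT and lowest in both groups without LPS, and of these only the last pair overlapped. Mmp8, a collagenase best known from neutrophil granules, was also highest with LPS and intermediate with LPS+DHA5HT. Its values were 4.04, 4.23, 4.77 and 3.74 in LPS+DHA5HT arrays, against 5.03, 4.89, 5.94 and 4.28 in LPS arrays, so these groups overlapped. Without LPS it lay below the 3.66 mark in every array, at 2.89 to 3.35 in DHA5HT arrays and 2.84 to 3.25 in controls.

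Mmp9, the gelatinase that degrades denatured collagen and basement membrane collagen, read 10.53, 10.63, 10.91 and 10.35 in LPS+DHA5HT arrays, against 10.37, 10.42, 10.88 and 10.25 in LPS arrays. In DHA5HT arrays it read 7.88, 8.13, 8.53 and 8.42, against 7.56, 7.88, 8.01 and 8.09 in controls. The 8 arrays with LPS lay above the 8 without it, and among arrays with the same LPS status the groups with and without DHA5HT overlapped. Mmp12, the macrophage elastase, was bright and nearly level: 11.98 to 12.14 in LPS+DHA5HT arrays, 12.17 to 12.37 in LPS arrays, 12.13 to 12.43 in DHA5HT arrays and 12.01 to 12.40 in controls. Its 4 group means lay between 12.10 and 12.30, and of the pairs compared only LPS+DHA5HT and LPS did not overlap. Mmp14, a membrane-anchored protease that activates the precursor of gelatinase A, read 3.72 to 4.14 in LPS+DHA5HT arrays, 3.88 to 4.14 in LPS arrays, 3.71 to 4.22 in DHA5HT arrays and 3.86 to 3.99 in controls, close to the background mark and with overlap between all groups.

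Timp1, a broad inhibitor of secreted metalloproteases, lay below 3.66 on all 16 arrays, from 3.26 to 3.59, so its probe set gave no level above the mark to compare between groups. Timp2, which inhibits metalloproteases and also helps Mmp14 to activate gelatinase A, read 9.18, 9.44, 9.39 and 9.28 in LPS+DHA5HT arrays, against 9.09, 9.24, 9.36 and 9.06 in LPS arrays. In DHA5HT arrays it read 10.15, 10.42, 10.21 and 10.16, against 9.84, 10.11, 10.09 and 9.89 in controls. All arrays without LPS lay above all arrays with it, and each DHA5HT array lay above each control array, by a narrow margin.

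Of the urokinase pair, Plau read 7.92, 8.16, 7.86 and 7.45 in LPS+DHA5HT arrays, against 7.58, 8.08, 7.79 and 7.54 in LPS arrays. In DHA5HT arrays it read 9.06, 9.03, 9.03 and 8.85, against 9.07, 9.03, 9.01 and 8.83 in controls. Levels of the protease gene were thus lower with LPS, and groups with the same LPS status overlapped. Its receptor gene Plaur ran the other way, with 10.86 to 10.95 in LPS+DHA5HT arrays and 10.73 to 11.03 in LPS arrays, against 9.42 to 9.52 in DHA5HT arrays and 9.59 to 9.71 in controls. Thbs1 codes for a secreted glycoprotein that binds CD47 and CD36 and can activate latent TGF-beta. It read 6.21, 6.61, 6.28 and 6.18 in LPS+DHA5HT arrays, against 6.82, 6.98, 6.88 and 6.76 in LPS arrays. In DHA5HT arrays it read 4.03, 4.30, 4.48 and 4.15, against 4.33, 3.94, 4.03 and 4.21 in controls. Like Mmp13, Thbs1 had its highest levels with LPS, lower ones with LPS+DHA5HT with no overlap, and its lowest in the overlapping groups without LPS.

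**Figure D1:**
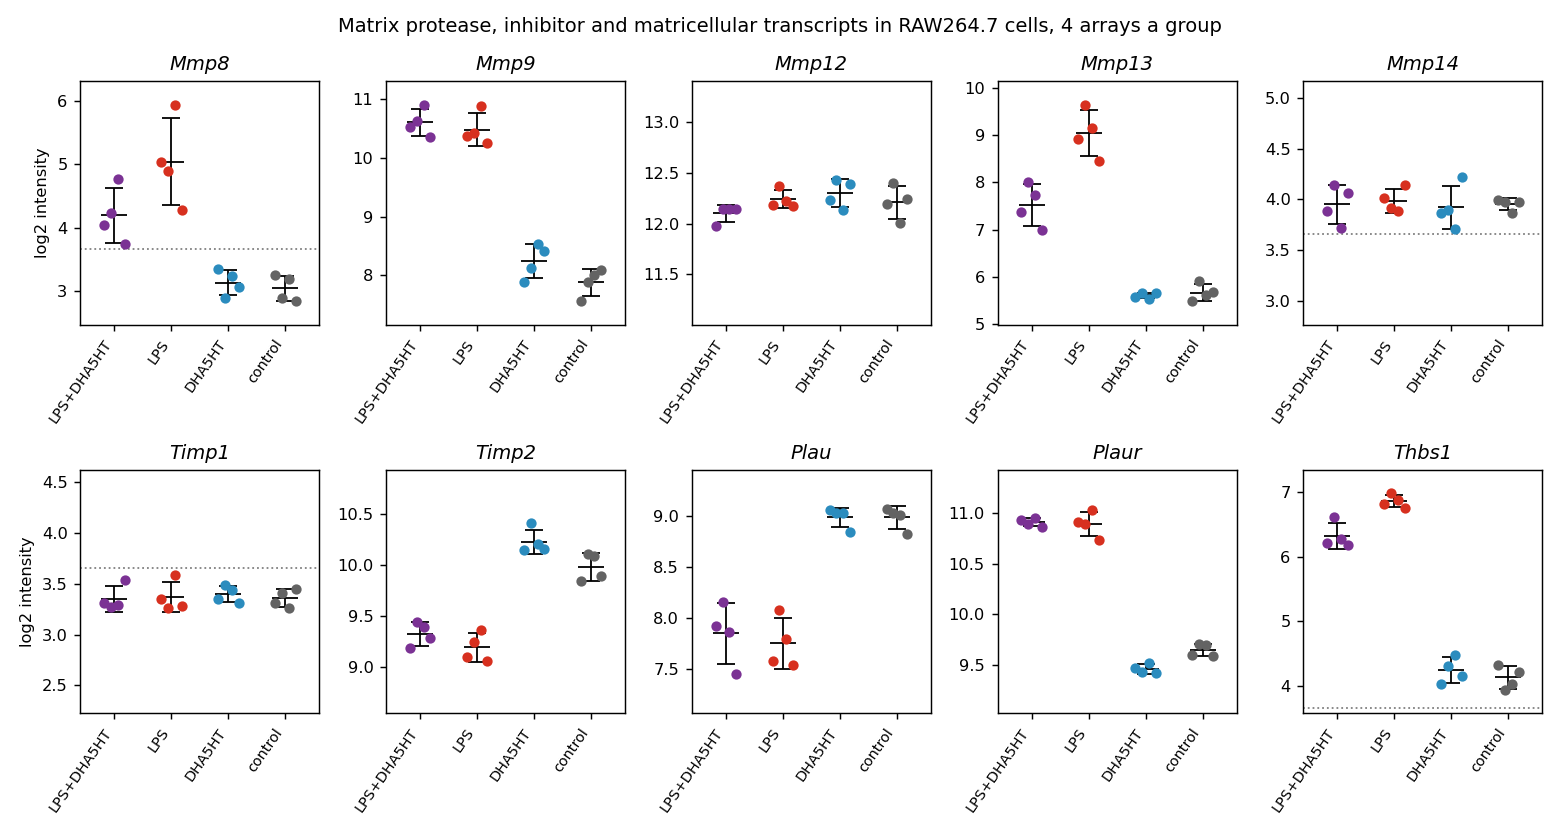
Log2 intensity of the 10 genes by group (colour, x axis) with 1 point per array, the mean as a bar and the SD as whiskers (n = 4). The y axis differs between panels. The dotted line, out of range in the panels of bright genes, marks 3.66, the median level of marker genes that macrophages should lack. Mmp13 and Thbs1 stand lower in LPS+DHA5HT than in LPS arrays without overlap, while Mmp9 and Plaur do not, and Timp1 stays under the dotted line on every array.

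LPS against control asks how the matrix genes answered the bacterial stimulus. Of the 10 genes, 5 rose, 2 fell and 3 did not pass (limma, Benjamini-Hochberg adjusted p under 0.05 over all 18820 genes). Across all genes 12.6% rose and 15.8% fell, and the median change was 0.639 for the 10 genes and 0.004 for all genes. Mmp13 averaged 9.04 ± 0.49 with LPS and 5.67 ± 0.18 in controls, a rise of 3.36 (SE 0.21) or 10.3-fold (adjusted p = 1.22e-09). It ranked 47th among the 18820 genes from the largest increase. Thbs1 averaged 6.86 ± 0.09 with LPS and 4.13 ± 0.18 in controls, a rise of 2.73 (SE 0.11) or 6.65-fold (adjusted p = 4.28e-12). Its control level lay not far above the background mark. Mmp9 rose by 2.60 (SE 0.16, 6.05-fold, adjusted p = 1.12e-09) and the urokinase receptor gene Plaur by 1.24 (SE 0.06, 2.36-fold, adjusted p = 7.07e-11). Mmp8 averaged 5.04 ± 0.69 with LPS and 3.04 ± 0.20 in controls (adjusted p = 1.05e-05). Since controls lay under the background mark, its rise was counted from that mark, as 2.59-fold.

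The genes that fell with LPS were a protease activator and an inhibitor. Plau averaged 7.75 ± 0.25 with LPS and 8.99 ± 0.11 in controls, or 2.36-fold lower (−1.24, SE 0.13, adjusted p = 7.9e-07), so the gene for urokinase fell while that for its receptor rose by a like amount. Timp2 averaged 9.19 ± 0.14 with LPS and 9.98 ± 0.14 in controls, or 1.74-fold lower (−0.80, SE 0.09, adjusted p = 1.54e-06). The genes that did not pass were Mmp12, which changed by 0.03 (95% interval −0.15 to 0.21), Mmp14 by 0.04 (−0.18 to 0.25) and Timp1 by 0.02 (−0.16 to 0.19). For the same 7 genes that passed, the 4 LPS arrays did not overlap with the 4 control arrays, as for 29.8% of all genes.

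The LPS response was also measured in the presence of DHA5HT, as LPS+DHA5HT against DHA5HT. The 7 genes above passed here too, in the same directions, 5 up and 2 down, where 12.4% of all genes rose and 15.7% fell, and none of the 7 overlapped between groups (28.5% of all genes). Mmp13 averaged 7.52 ± 0.44 with LPS+DHA5HT and 5.61 ± 0.06 with DHA5HT, 3.76-fold higher (1.91, SE 0.21, adjusted p = 1.6e-06), beside 10.3-fold without DHA5HT. Thbs1 was 4.23-fold higher (2.08, SE 0.11), beside 6.65-fold. Its means without LPS, 4.24 with DHA5HT and 4.13 in controls, lay within the array medians of the epithelial markers (3.86 to 4.27). Both Thbs1 folds may therefore be limited by background. Mmp8 was higher as well (1.06, SE 0.26, adjusted p = 0.00447), by 1.45-fold counted from the background mark, beside 2.59-fold. The other 4 genes had closer values in the 2 settings: Mmp9 5.15-fold higher, Plaur 2.73-fold higher, Plau 2.21-fold lower and Timp2 1.88-fold lower. Mmp12 changed by −0.20 (SE 0.08, adjusted p = 0.1). The 7 calls held when any single array of these groups was left out. The absence of overlap includes LPS+DHA5HT array 1, the array with conflicting labels, and is not a separate check of it.

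**Figure D2:**
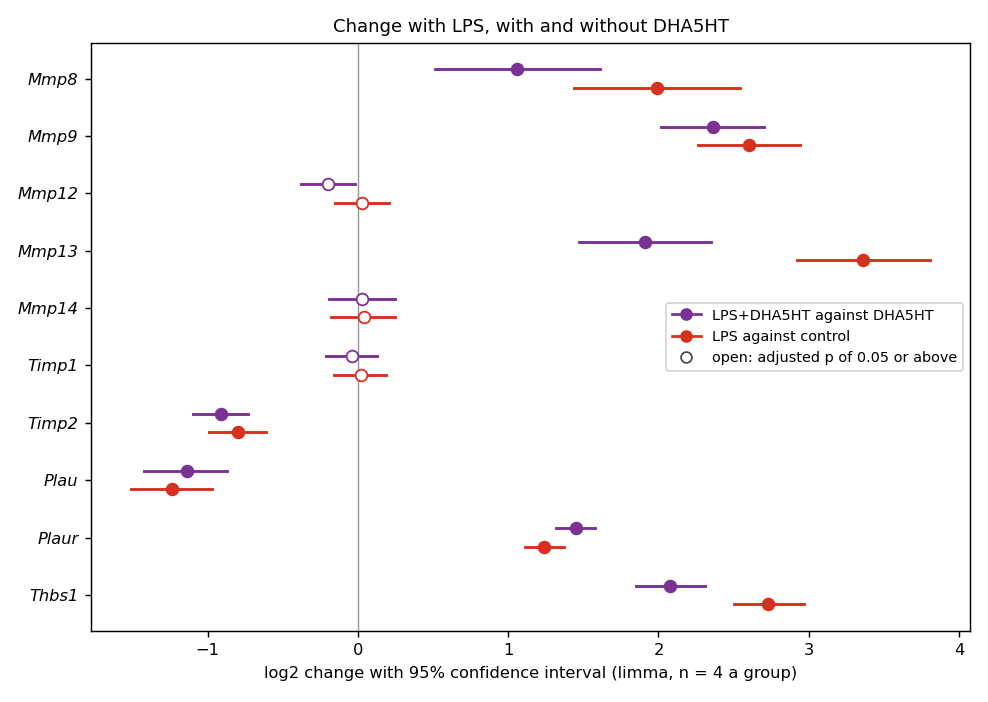
Log2 change with LPS for each gene, in the presence of DHA5HT (purple, LPS+DHA5HT against DHA5HT) and in its absence (red, LPS against control), with 95% confidence intervals from limma; open symbols did not pass. For Mmp13 the 2 changes are 1.91 and 3.36, and for Mmp8, Mmp9, Timp2, Plau and Plaur, among the genes that passed, the intervals of the pair overlap.

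DHA5HT in LPS-treated cells is the contrast that the study's design sets out. Mmp13 had the largest decrease of the 10 genes. It averaged 7.52 ± 0.44 with LPS+DHA5HT and 9.04 ± 0.49 with LPS, which is 2.86-fold lower (−1.52, SE 0.21, adjusted p = 0.00133). It ranked 11th of the 18820 genes from the largest decrease. Thbs1 also fell, averaging 6.32 ± 0.20 with LPS+DHA5HT and 6.86 ± 0.09 with LPS, which is 1.45-fold lower (−0.54, SE 0.11, adjusted p = 0.0202). So 2 of the 10 genes fell and 0 rose, where 0.972% of all genes fell and 0.818% rose, and the median change was −0.025 for the 10 genes and 0.002 for all genes. The arrays of 3 genes did not overlap, all lower with DHA5HT (3.91% of all genes): Mmp13, Thbs1 and Mmp12, whose change of −0.14 (SE 0.08, adjusted p = 0.521) did not pass. The Mmp13 call held without LPS+DHA5HT array 1 (−1.47, adjusted p = 0.00612) and without array 4 (−1.34, adjusted p = 0.00452). The Thbs1 call did not hold without LPS+DHA5HT array 1 (−0.50, adjusted p = 0.0632), LPS+DHA5HT array 4 (−0.49, adjusted p = 0.0654) or LPS array 2 (−0.50, adjusted p = 0.0732).

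Arrays with the same replicate number varied together in these 2 groups, and this bears most on Mmp13 and Mmp8. For Mmp13 the difference of LPS+DHA5HT minus LPS was −1.53, −1.63, −1.42 and −1.48 for numbers 1 to 4, with an SD of 0.09, against SDs of 0.44 and 0.49 within the groups. For Mmp8 it was −0.99, −0.66, −1.17 and −0.54, and for Thbs1 −0.61, −0.37, −0.60 and −0.58. All 12 differences were negative, which for Mmp13 and Thbs1 follows from the groups not overlapping. Genes without a call could agree in sign too: Mmp12 was lower for all 4 numbers, and Mmp9 and Timp2 were higher for all 4. Mmp8 did not pass in the fit without pairing (−0.84, SE 0.26, adjusted p = 0.124) and passed with replicate number as a block (−0.84, SE 0.18, adjusted p = 0.025). With the block, 1.72% of all genes were lower and 1.72% higher. The Mmp8 mean of 4.19 ± 0.43 with LPS+DHA5HT against 5.04 ± 0.69 with LPS lay not far above the background mark of 3.66.

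**Figure D3:**
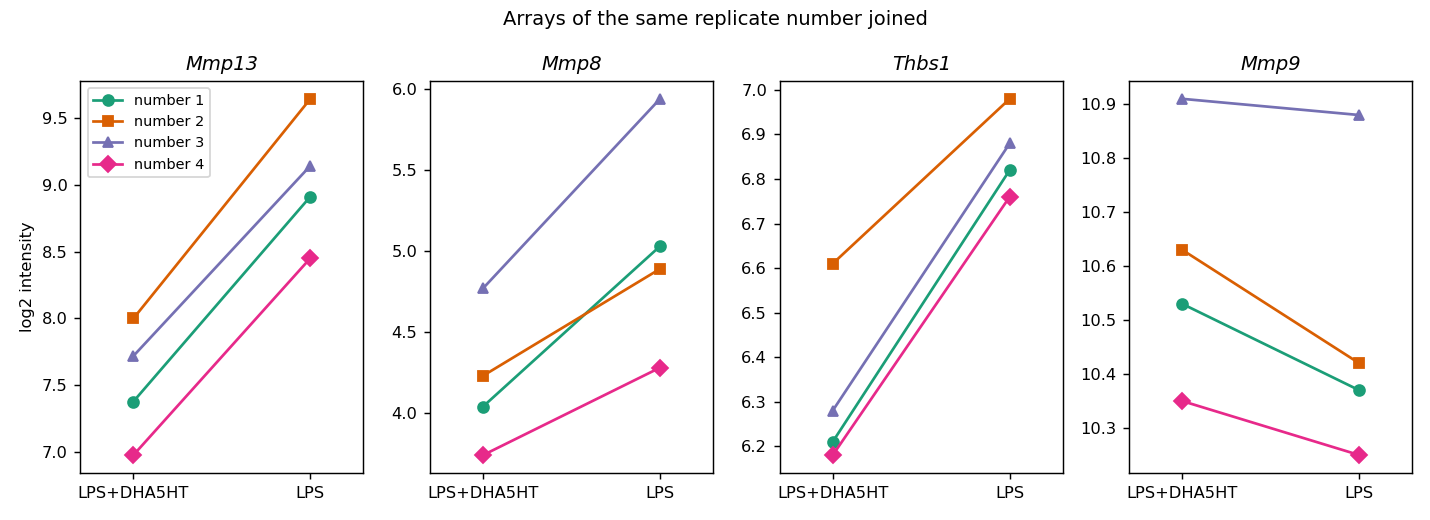
Log2 intensity of Mmp13, Mmp8, Thbs1 and Mmp9 on the LPS+DHA5HT (left) and LPS (right) arrays, with arrays of one replicate number joined by a line; each panel has its own y axis. The 4 lines for Mmp13 run nearly parallel (differences −1.63 to −1.42), while for Mmp9 they run slightly the other way (0.03 to 0.21).

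The remaining genes gave no call with DHA5HT in LPS-treated cells. Mmp9 averaged 10.61 ± 0.23 with LPS+DHA5HT and 10.48 ± 0.28 with LPS (0.12, 95% interval −0.22 to 0.46, adjusted p = 0.808). Plaur changed by 0.01 (−0.12 to 0.15), Plau by 0.10 (−0.17 to 0.37), Timp2 by 0.14 (−0.05 to 0.32), Mmp14 by −0.03 (−0.25 to 0.18) and Timp1 by −0.02 (−0.19 to 0.15). The urokinase pair and Timp2, which moved with LPS, had intervals that left room for changes of up to 0.37 with DHA5HT.

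DHA5HT against control shows the compound in cells without LPS. None of the 10 genes passed (limma; 0 called, 3 with an unadjusted p under 0.05), where 0.6% of all genes passed and 9.85% had an unadjusted p under 0.05, and the median change was 0.063. The 3 genes were Plaur, which averaged 9.46 ± 0.05 with DHA5HT and 9.65 ± 0.06 in controls (−0.19, SE 0.06, adjusted p = 0.272), Timp2 with 10.23 ± 0.12 and 9.98 ± 0.14 in the same order (0.25, SE 0.09, adjusted p = 0.318) and Mmp9 with 8.24 ± 0.29 and 7.88 ± 0.23 (0.36, SE 0.16, adjusted p = 0.482). Plaur and Timp2 did not overlap between the groups, as for 5.89% of all genes. With replicate number as a block these 3 genes did not pass either, though Timp2 came close (limma adjusted p = 0.0519 for Timp2, 0.117 for Plaur and 0.202 for Mmp9). Mmp13 averaged 5.61 ± 0.06 with DHA5HT and 5.67 ± 0.18 in controls (−0.06, 95% interval −0.51 to 0.38), and Thbs1 averaged 4.24 ± 0.20 and 4.13 ± 0.18 (0.11, −0.12 to 0.35). Both Thbs1 means lay not far above the background mark.

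The difference between the DHA5HT effects, with LPS minus without LPS, was tested as an interaction. Mmp13 passed (−1.45, SE 0.30, adjusted p = 0.0434) and was 1 of 62 genes in all (0.329%). Its size was steady when single arrays were left out (−1.65 to −1.25). The call was kept in 2 of 16 such fits, with adjusted p from 0.00934 to 0.111. Without LPS+DHA5HT array 1 it was −1.41 (adjusted p = 0.0947) and without array 4 −1.27 (adjusted p = 0.0788). These single-array fits did not pair the replicate numbers. With the replicate block and all 16 arrays the Mmp13 interaction passed (limma adjusted p = 0.00696), and no single array was left out of that fit. Thbs1 (−0.65, SE 0.16, adjusted p = 0.125), Mmp8 (−0.93, SE 0.37, adjusted p = 0.54) and Plaur (0.21, SE 0.09, adjusted p = 0.587) fell short of the threshold. The other 6 genes, from −0.23 to 0.09, fell short as well. Among the alternative fits Thbs1 passed only without LPS+DHA5HT array 2 (−0.75, limma adjusted p = 0.034). This contrast shares all its arrays with the comparisons above.

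**Figure D4:**
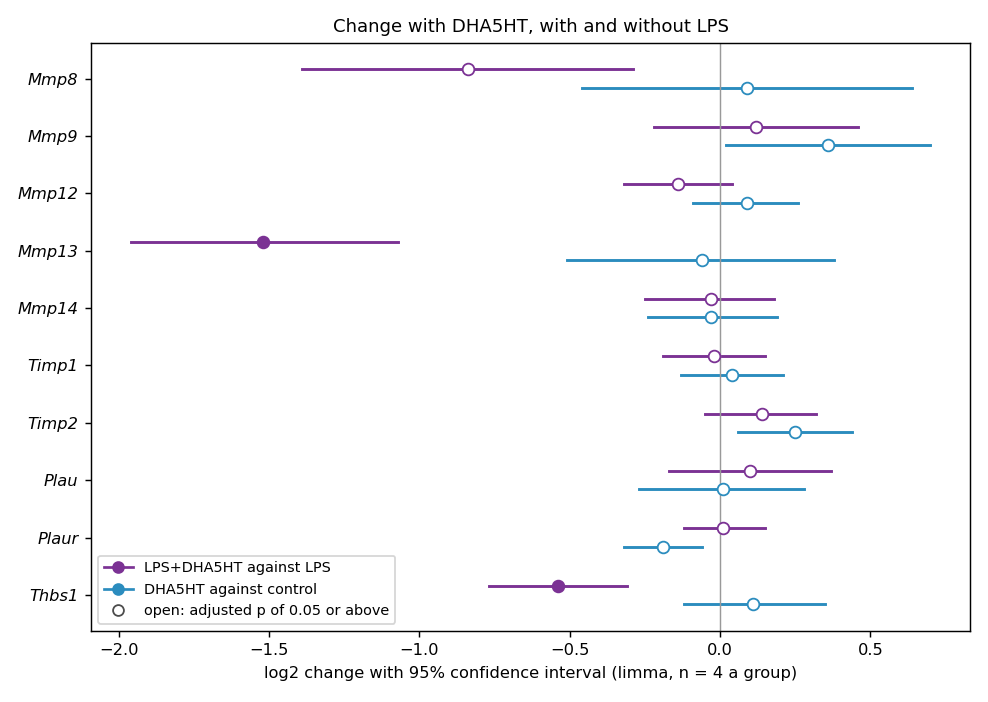
Log2 change with DHA5HT for each gene in LPS-treated cells (purple, LPS+DHA5HT against LPS) and in cells without LPS (blue, DHA5HT against control), with 95% confidence intervals from limma; filled symbols passed an adjusted p of 0.05. Mmp13 (−1.52) and Thbs1 (−0.54) are the filled symbols, both in LPS-treated cells.

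Mmp13, Mmp12 and Mmp8 belong to a row of metalloprotease genes on mouse chromosome 9 that holds 10 protein-coding Mmp genes in the RefSeq annotation, 9 of them measured. Neighbours in the row differed. Mmp13 and Mmp12 are next to each other in it, and their changes with LPS were 3.36 and 0.03. Mmp10, a stromelysin that lies beside Mmp8 in the row, averaged 5.33 with LPS and 4.72 in controls and rose by 0.62 (adjusted p = 0.00709), with overlapping arrays. It averaged 5.29 with LPS+DHA5HT (−0.04 against LPS, adjusted p = 0.949), so of the 3 genes of the row that rose with LPS, Mmp13 fell with DHA5HT in LPS-treated cells, Mmp8 passed with the replicate block (adjusted p = 0.025) and not in the unpaired fit, and Mmp10 did not pass. The other 5 measured genes of the row had group means of 2.32 to 3.61, under the background mark in all groups.

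The promoter windows below are of the members in which the AP-1 motif TGANTCA was found, to show where it lies in Mmp13, which fell with DHA5HT in LPS-treated cells, and in Mmp12 and Plaur, which did not pass there. They come from RefSeq on build GRCm38.p6, run from 250 bases before to 50 after an annotated transcript start, and are written 5′ to 3′ with the motif in capitals. Windows were given for 7 of the 10 genes (Mmp8, Mmp12, Mmp13, Mmp14, Plaur, Timp1 and Timp2), 8 in all since Mmp12 has a window at each of its starts.
Mmp13, chr9:7272264-7272563, + strand: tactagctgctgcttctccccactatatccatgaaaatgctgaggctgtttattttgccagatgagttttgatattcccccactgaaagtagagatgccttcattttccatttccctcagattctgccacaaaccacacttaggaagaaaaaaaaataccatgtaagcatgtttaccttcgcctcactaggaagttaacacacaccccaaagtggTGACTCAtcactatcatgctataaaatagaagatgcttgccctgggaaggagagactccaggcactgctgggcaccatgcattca
Mmp12, second start, chr9:7347124-7347423, + strand: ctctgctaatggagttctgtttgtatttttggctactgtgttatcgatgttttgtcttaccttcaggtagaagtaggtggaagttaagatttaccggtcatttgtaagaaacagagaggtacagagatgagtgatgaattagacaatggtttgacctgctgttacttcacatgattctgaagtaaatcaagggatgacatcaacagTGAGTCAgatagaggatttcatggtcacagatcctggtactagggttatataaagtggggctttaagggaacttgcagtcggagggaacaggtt
Plaur, chr7:24462233-24462532, + strand: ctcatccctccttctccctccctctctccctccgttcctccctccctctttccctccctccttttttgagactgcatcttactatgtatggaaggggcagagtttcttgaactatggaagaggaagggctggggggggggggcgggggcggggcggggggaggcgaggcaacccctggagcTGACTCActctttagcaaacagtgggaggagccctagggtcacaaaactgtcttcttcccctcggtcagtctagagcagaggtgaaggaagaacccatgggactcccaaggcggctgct

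The motif begins 35 bases upstream of the start in Mmp13, 44 in Mmp12 and 69 in Plaur. It reads the same in pattern on both strands, and 7.81% of all 32851 windows of this length in the table hold it. The letters TATAAA, searched on both strands, were found 16 bases upstream of the start in Mmp13 and in the windows of Mmp8 and of the second Mmp12 start (13.6% of all windows). The NF-kB consensus motif, also searched on both strands, was found in 1 window, that of the first Mmp12 start (8.46% of all windows). No 2 of these matches overlap. Plaur rose with LPS, Mmp13 rose with LPS and fell with DHA5HT, and Mmp12 passed in neither comparison, so genes with the AP-1 letters in this window had different patterns.

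A wider list of 68 other genes of matrix remodelling places the 10 in context, and 60 of them were measured, 44 above the background mark. With LPS 13 of the 60 rose and 12 fell, with a median change of 0.042, where 12.6% of all genes rose and 15.8% fell. The largest increases without overlap between groups were of Serpinb2, an inhibitor of urokinase (6.78, 110-fold), the membrane-anchored protease gene Mmp25 (1.77), the aggrecanase gene Adamts4 (1.58), the fibronectin receptor chain Itga5 (1.03) and the collagen hydroxylase chain P4ha2 (0.74). The largest decreases were of the matrix protein gene Tgfbi (−3.24), the endocytic receptor gene Lrp1, which takes up urokinase and thrombospondin-1 (−1.26), the heparanase gene Hpse (−1.22), the tissue plasminogen activator gene Plat (−0.74) and the lysosomal protease gene Lgmn (−0.63). Both plasminogen activators, Plau and Plat, therefore fell with LPS while the inhibitor Serpinb2 rose. Among the receptors and binding partners of these proteins 5 of 10 rose and 2 fell, beside the same shares of all genes (12.6% and 15.8%). They include the thrombospondin-1 receptor genes Cd47, which rose by 0.46, and Cd36, whose change of 0.57 lay between group means of 3.27 with LPS and 2.70 in controls, both under the background mark.

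With DHA5HT in LPS-treated cells 3 of the 60 fell and 0 rose, with a median change of −0.026, where 0.972% of all genes fell and 0.818% rose. They were Mmp25 (mean 5.88 with LPS+DHA5HT and 6.53 with LPS, −0.65, adjusted p = 0.00351), Plod2 (−0.54, adjusted p = 0.0445), a lysyl hydroxylase of collagen, and P4ha2 (−0.44, adjusted p = 0.0267). Like Mmp13, Mmp25 passed the test of the difference between the DHA5HT effects (−0.79, adjusted p = 0.023), whereas P4ha2 also fell with DHA5HT without LPS (−0.49, adjusted p = 0.0181) and Plod2 changed by −0.50 there (adjusted p = 0.124). With the replicate block 5 fell and 2 rose, where 1.72% of all genes fell and 1.72% rose. Those added were Serpinb2 (−1.36, adjusted p = 0.027 with the block and 0.0614 without it), Itgav, an integrin chain (−0.40), Mmp19, a metalloprotease (0.72), and Ecm1, a matrix protein (0.46). Without LPS array 2 or without LPS+DHA5HT array 4 the count was 1.

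**Figure D5:**
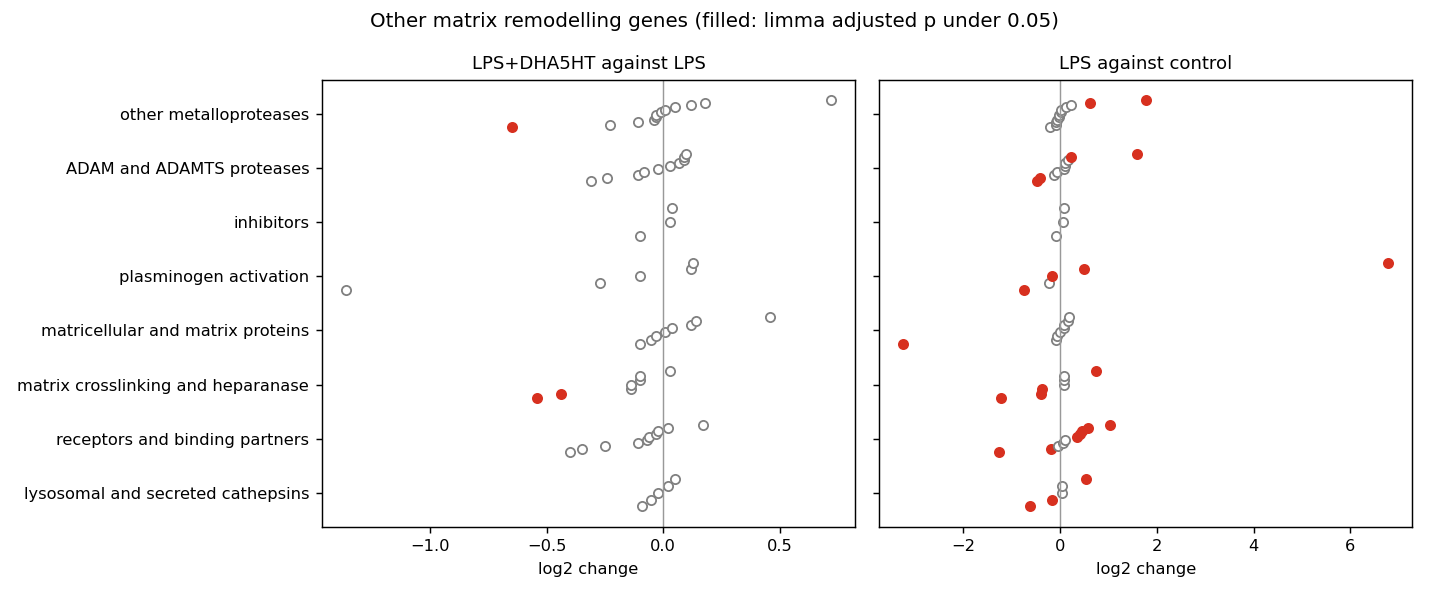
Log2 change of 60 other matrix remodelling genes, 1 point per gene grouped by role (y axis), for LPS+DHA5HT against LPS (left) and LPS against control (right); the x axes differ in scale and filled points passed. The point farthest right in the right panel is Serpinb2 (6.78), and the 3 filled points in the left panel are Mmp25, Plod2 and P4ha2.

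Each gene was also set against the other measured genes with a full name by the Pearson correlation of its values over the 16 arrays, a description that the split between arrays with and without LPS dominates. The nearest gene was Sprr2e for Mmp13 (r = 0.992), a small proline-rich protein gene that changed by 4.31 with LPS and by −1.95 with DHA5HT in LPS-treated cells. For Thbs1 it was the co-stimulatory ligand gene Cd86 (r = 0.992), which changed by 2.02 and −0.33 in the same order, and for Mmp8 the chemokine gene Cxcl3 (r = 0.964), with 1.65 and −0.82. Mmp9 lay nearest to the lectin receptor gene Clec4n (r = 0.996), Plaur to the mitochondrial superoxide dismutase gene Sod2 (r = 0.994), Plau to Naaa, an amidase of lipid amides (r = 0.983), and Timp2 to the RNA sensor gene Tlr7 (r = 0.979). These 4 changed with DHA5HT in LPS-treated cells by 0.19, −0.06, −0.01 and 0.18. The genes that did not move with LPS had weaker nearest matches, at r = 0.827 for Mmp12 (Prss46), 0.817 for Mmp14 (Cd9) and 0.8 for Timp1 (Fam120c).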

How the data were processed

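Total RNA from 16 samples of RAW264.7 cells was labelled with an Affymetrix whole-transcript kit and measured on 1 array a sample, per the labels' protocols. The deposited values are log2 intensities made by the authors with RMA, per the submitters' processing notes; its version, the annotation and any filter are not given in the sources used here. The table held 35556 probe sets. Of these 21218 named exactly 1 gene in the array's gene table, 1881 several and 12457 were not in it. For genes with several probe sets the one with the highest mean over 16 arrays was kept, which left 18820 genes.

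Groups followed the sample titles. Each gene was fitted with 4 group means in limma (version 3.58.1, R 4.3.3; functions lmFit and eBayes, 12 residual degrees of freedom, two-sided), with Benjamini-Hochberg adjustment over all 18820 genes in each of 5 comparisons and a threshold of 0.05. The number of arrays limits the precision. Deviations from group means of same-numbered arrays correlated at 0.116 to 0.205 for LPS+DHA5HT and LPS and at 0.131 to 0.183 for DHA5HT and control. These numbers were taken as pairs from the data. For LPS and control (0.099 to 0.131) and for LPS+DHA5HT and DHA5HT (0.07 to 0.232) 3 of 4 pairs were over 0.1, so they were not. The mark of 0.1 is arbitrary and the split by it narrow: LPS and control missed it at 0.099, and the highest correlation, 0.232, was in a comparison not taken as paired. Of the 16 arrays, 15 correlated best with an array of their own number among those of the other groups. The replicate block was fitted over all 16 arrays at once. Every block result, that of Mmp8 included, therefore uses the numbers in all 4 groups.

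The 10 genes were named in every comparison. Of the wider list the rule named up to 5 increases and 5 decreases among genes past the threshold without overlap between groups, in LPS against control and in LPS+DHA5HT against LPS, and the nearest gene by correlation for each of the 10. Cd47, Cd36 and the genes added by the block were named after their values were seen. The genes and lists were chosen with earlier results of these data known. The alternatives tried were array weights, an intensity trend, a replicate block, leaving out dim genes, quantile normalization or centring of the deposited values, all probe sets, the compared arrays alone, other thresholds and leaving out each array. The fits were tested on simulated data with independent noise on each array. The simulation held no effect of replicate number, so it does not cover that feature of these arrays. Figures were drawn with matplotlib 3.10.9.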

Additional observations from a re-analysis of the deposited data

Results flagged for a closer look

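Mmp13 differed in its response to DHA5HT between cells with and without LPS: the interaction was −1.45 (SE 0.30, limma adjusted p = 0.0434), with the fragility to single arrays given above.

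In 2 of the 40 sets of 4 arrays, 1 array lay far from the other 3 (Dixon's test), where chance gives about 1 in 20 sets. Mmp12 read 11.98 on LPS+DHA5HT array 1, the array with conflicting labels, and 12.14 on its nearest neighbour. Plau read 8.85 on DHA5HT array 4, against 9.03 on its nearest neighbour, and its level on control array 4 was also the lowest of its group (8.83).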

How the results depend on the processing

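Over 17 called changes of the 10 genes, 260 of 279 alternative values kept direction and call, 19 kept direction and lost the call (16 for the Mmp13 interaction and 3 for Thbs1 in LPS+DHA5HT against LPS) and 0 reversed. Of 591 values of the 33 changes not called, 7 passed and 37 changed sign, none of these called and none larger than 0.09. With the replicate block Mmp8 passed in LPS+DHA5HT against LPS (adjusted p = 0.025), which made 3 genes, and Mmp12 in LPS+DHA5HT against DHA5HT (−0.20, adjusted p = 0.0343), where the numbers were not taken as pairs. Mmp12 also passed there with an intensity trend (−0.20, adjusted p = 0.0448), with quantile normalization (−0.28, adjusted p = 0.0111) and without DHA5HT array 3 (−0.25, adjusted p = 0.0447). The replicate block changed no other call of the 10 genes, and the Mmp13 interaction stayed called (adjusted p = 0.00696). The count for the interaction was 0 with array weights (−1.36, adjusted p = 0.0624), 0 with all probe sets (adjusted p = 0.0577) and 0 at an adjusted p under 0.01, and 0 to 2 with single arrays left out. For LPS+DHA5HT against LPS it was 1 at an adjusted p under 0.01 and 1 to 3 with single arrays left out, and Mmp8 passed without LPS array 4 (−1.09, adjusted p = 0.0391). The wider list had 7 genes there with the replicate block, 7 with an intensity trend and 7 with dim genes left out, and 1 to 4 with single arrays left out; the cause was not tested.

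Sign changes were all near 0. Quantile normalization gave −0.02 for Mmp12 and −0.01 for Timp1 in LPS against control, −0.01 for Plau in DHA5HT against control and 0.01 for the Mmp14 interaction, and centring gave 0.00, 0.00 and 0.01 for Timp1, Plau and Mmp14 in those comparisons. Leaving out single arrays, LPS against control ran from −0.04 to 0.09 for Mmp12, −0.01 to 0.07 for Mmp14 and −0.06 to 0.05 for Timp1. LPS+DHA5HT against LPS ran from −0.10 to 0.04 for Mmp14, −0.08 to 0.05 for Timp1, −0.01 to 0.23 for Plau and −0.04 to 0.06 for Plaur. DHA5HT against control ran from −0.12 to 0.02 for Mmp13, −0.13 to 0.04 for Mmp14 and −0.05 to 0.05 for Plau, and LPS+DHA5HT against DHA5HT from −0.04 to 0.13 for Mmp14. The interaction ran from −0.08 to 0.09 for Mmp14, −0.12 to 0.01 for Timp1 and −0.01 to 0.23 for Plau. Signal over background limits Timp1 in all groups, Mmp8 without LPS and Mmp14. Thbs1 without LPS, at 4.24 with DHA5HT and 4.13 in controls, also lay not far above the mark.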
